A study of Oryza sativa Japonica Group with 4 samples.

Results

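*OsC3H37*, *SAP5* and *CIGR2* are 3 regulatory genes of rice whose transcripts were higher in nitrogen-starved roots after 30 min of ammonium nitrate. They were chosen from the 17905 genes with a probe set on the array because they were higher on these same arrays, so their difference between the groups is described here without a test. The samples were roots of 17-day-old seedlings of the japonica cultivar TNG67, which had been grown in hydroponic solution without nitrogen. They were then moved for 30 min either to solution without nitrogen (−N) or to solution with 1.43 mM ammonium nitrate (+N), so nitrogen starvation was common to both groups. There were 4 Affymetrix Rice Genome Arrays, 1 for each of 2 biological replicates per group. Whether the replicates came from separate cultures is not stated in the labels, so the p-values given for other genes measure only the spread between these samples.

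The 3 genes belong to different protein families. Proteins with CCCH zinc fingers, such as that of *OsC3H37* (LOC4339379), bind nucleic acids, and many of them bind RNA and act on its stability or translation. Stress-associated proteins, such as that of *SAP5* (LOC4329544), carry A20 and AN1 zinc fingers, domains known from proteins of ubiquitin signalling, and several of the rice genes respond to cold, drought or salt. *CIGR2* (LOC4343735) encodes a GRAS family protein, a plant family of transcriptional regulators that includes the DELLA repressors of gibberellin signalling, and its name stands for chitin-inducible and gibberellin-responsive.

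The array reads each gene with 1 or several probe sets, and the deposited value of a probe set is its intensity on a linear scale. Both arrays of replicate 2 were brighter, with medians over 57194 rice probe sets of 25.2 in −N and 25.4 in +N, against 17.8 and 17.1 for replicate 1. The values were used as deposited. Log2 fold changes are +N over −N, with intensities under 5.16 set to that value before the log. Of 7 root genes chosen as markers, all were measured at mean intensities from 104.5 to 8560, the brightest being *Lsi1*, a silicon transporter gene of roots. Of 4 leaf genes, *CAB2R*, which encodes a chlorophyll-binding protein, was also bright, between 7870 and 11216 on the 4 arrays. The other leaf genes were dimmer, with mean intensities of 97.4 (*FBP1*), 774 (*GLO1*) and 839 (*OsrbcS*) for the probe set used. With the exceptions of *OsPIP2;5* and *GLO1*, the marker genes of both lists were highest on the −N array of replicate 2. Their log2 change from replicate 1 to replicate 2 in −N ran from 0.27 (*GLO1*) to 2.41 (*FBP1*), against a median of 0.35 over all rice probe sets. In +N it ran from -0.09 (*Lsi2*) to 1.12 (*OsPIP2;5*), against a median of 0.36. Neither list had a gene with both +N arrays above or both below the −N arrays, against 9.23% and 5.12% of all genes. By the rule given below 0 were called, against 1.03% of all genes. Among 7 and 4 genes such counts are near the background and are no result about the markers. The part of these genes in the results was not tested.

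*OsC3H37* had the largest difference of the 3 genes. In −N its probe set had an intensity of 115 in replicate 1 and 133 in replicate 2, and in +N it had 1797 and 1698. Both +N arrays were far above both −N arrays, and within each group the replicates lay close together. In whole roots, more RNA per cell and a larger share of the cells that express a gene cannot be told apart. The log2 fold change was 3.82 (standard error, SE, 0.16), a 14.1-fold difference. It was 15.6-fold between the arrays of replicate 1 and 12.7-fold between those of replicate 2. The standard deviation of the log2 values was 0.15 in −N and 0.06 in +N (n = 2 each).

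*CIGR2* came next in the size of its difference. Its probe set had 373 and 556 in −N and 1768 and 1701 in +N, again for replicates 1 and 2. The +N arrays were nearly equal, while the −N arrays were 0.57 apart on the log2 scale, the one of replicate 2 being brighter. The log2 fold change was 1.93 (SE 0.26), a 3.81-fold difference, and the groups did not overlap. The difference was 4.74-fold in replicate 1 and 3.06-fold in replicate 2, and the gap lay in the −N values. The median change from replicate 1 to replicate 2 over all rice probe sets was 0.35 in −N and 0.36 in +N, so *CIGR2* moved with the scale of the arrays in −N and not in +N, where it was 0.06 lower on replicate 2 (a log2 difference of -0.06).

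*SAP5* had the smallest difference and was read by a pair of probe sets. The first had 951 and 740 in −N and 2512 and 1784 in +N. The second, whose suffix x marks probes that can also match other transcripts, had 972 and 720 in −N and 2538 and 1843 in +N. On each array the ratio of the second to the first was between 0.972 and 1.03, so both gave nearly the same reading. Their log2 fold changes were 1.33 (SE 0.27) and 1.37 (SE 0.28), or 2.52-fold and 2.58-fold. The differences within the replicate numbers were alike as well, 2.64-fold and 2.41-fold for the first probe set and 2.61-fold and 2.56-fold for the second.

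Unlike *CIGR2* in −N, *SAP5* ran against the scale of the arrays. It was dimmer on the arrays of replicate 2 in both groups, with log2 differences of -0.36 in −N and -0.49 in +N for the first probe set, although these arrays were the brighter ones. Of all rice probe sets 7.75% were lower on the replicate 2 array in both groups, and 71.7% were higher in both. Because replicate 2 was dimmer by a like amount in each group, the difference within a replicate number varied little, while that between arrays of different numbers ranged from 0.91 to 1.76 on the log2 scale. The lowest +N intensity was still 1.88 times the highest −N intensity. For *CIGR2* the same ratio was 3.06 and for *OsC3H37* it was 12.7.

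**Figure D1:**
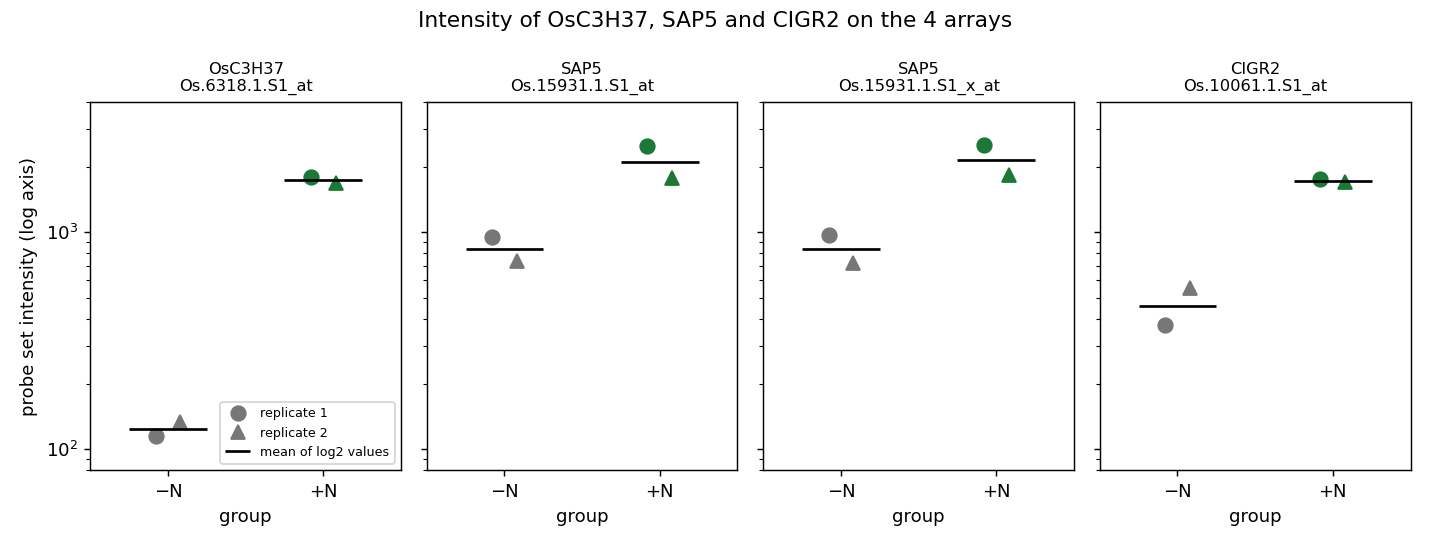
Probe set intensity (log axis) of *OsC3H37*, *SAP5* (2 probe sets) and *CIGR2* in −N and +N roots. Each point is 1 array, circles are replicate 1, triangles are replicate 2, and the bar is the mean of the log2 values. In each panel both +N arrays lie above both −N arrays, and *SAP5* is dimmer on the arrays of replicate 2 in both groups.

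The other genes of the 3 families were drawn by name and not by their own values, so they could be tested. The families themselves were chosen with earlier results of these data known. These relatives were compared between +N and −N with limma over all 57194 rice probe sets. A gene counted as called if it changed 2-fold or more and its unadjusted p was under 0.05. By this rule 266 probe sets were higher in +N (0.465%) and 8 were lower (0.014%). For genes, each represented by its probe set of highest mean, 180 of 17905 were higher (1.01%) and 4 were lower (0.0223%). In limma 694 probe sets (1.21%) had an unadjusted p under 0.05, and 0 passed Benjamini-Hochberg adjustment. The smallest two-sided p of an exact permutation test with 2 arrays per group is 0.333. Calls below are therefore unadjusted. The families hold only genes whose symbol or synonym in the gene table carries a family name, so relatives without such a name are in none of the counts. *OsC3H37*, *SAP5* and *CIGR2* are left out of every count of their families. With 1.03% of all genes called in either direction, a count of 0 among the 49, 12 or 6 relatives is near the background.

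No other gene named as a CCCH zinc finger gene was called. Of 53 such genes in the gene table, 50 had a probe set, and of the 49 beside *OsC3H37* 0 were called in limma, 1 had an unadjusted p under 0.05 and 0 passed after adjustment. Their median log2 fold change was 0.06, against 0.02 over all genes, and the values ran from -0.65 to 0.75. Both +N arrays lay above both −N arrays for 5 of the 49 genes (10.2%), against 9.23% of all genes, and below them for 1, against 5.12% of all genes. For 27 of the 49 the 95% confidence interval of the log2 fold change lay within 2-fold in both directions, while for 18 it reached a 2-fold increase. At the precision of 4 arrays and of this fit a change of that size cannot be set aside for those 18 genes. The 27 include genes near the lower limit, *OsC3H40* (7.89 to 10.3), *OsC3H43* (4.87 to 7.84) and *OsC3H47* (6.53 to 9.26). For such dim genes a narrow interval does not show an unchanged transcript. *OsC3H40* was also the gene with both +N arrays below both −N arrays. The fit has group as its only term, so a brightness shift shared by both groups counts as spread and can widen the interval. For example, *OsC3H6* was 0.916-fold in replicate 1 and 0.955-fold in replicate 2, with an interval from -1.38 to 1.18.

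The highest value among these relatives of *OsC3H37* was that of *OsC3H50*, with intensities of 266 and 369 in −N and of 514 and 539 in +N. The groups did not overlap. Its log2 fold change was 0.75 (SE 0.23, unadjusted p = 0.0409, adjusted p = 1 from limma), with a 95% confidence interval from 0.05 to 1.44. Whether its unadjusted p from limma lay under 0.05 depended on the fit. It was 0.0612 with trend and robust moderation, 0.0644 with the probe sets of a gene averaged and 0.0832 with dim probe sets left out. After quantile normalization it was 0.0159, and it stayed under 0.05 with median centring, the replicate block, the offset and no floor. *OsC3H24* followed with 0.56 (SE 0.25, unadjusted p = 0.0993). The lowest values were those of *OsC3H9* (-0.65, unadjusted p = 0.260) and *OsC3H35* (-0.65, unadjusted p = 0.20). *OsC3H9* had 65.8 and 146 in −N and 55.8 and 69.8 in +N, so its groups overlapped, and it met the rule for a decrease only when the −N array of replicate 1 was left out (log2 fold change -1.22, unadjusted p = 0.0347).

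Several CCCH genes with a known role in rice did not pass the test. *OsC3H2*, also named *OsDOS*, a gene that delays leaf senescence, had intensities of 1179 and 1531 in −N and of 934 and 1242 in +N (-0.32 on the log2 scale, SE 0.26, unadjusted p = 0.293 from limma). *OsC3H46*, also named *LIC*, which acts in brassinosteroid signalling and leaf angle, had a log2 fold change of -0.03 (SE 0.27, unadjusted p = 0.907). *OsC3H20*, also named *Ehd4*, a promoter of flowering, had one of 0.21 (SE 0.31, unadjusted p = 0.537), and *OsC3H12*, a gene of disease resistance, 0.19 (SE 0.18, unadjusted p = 0.354). *OsC3H60*, also named *U2AF35A*, a subunit of a splicing factor, had 0.40 (SE 0.26, unadjusted p = 0.219) with groups that did not overlap. The 14 CCCH genes with several probe sets are given by the brightest. *OsC3H15* showed the widest gap among those named here, 0.22 for its brighter probe set and -0.94 (unadjusted p = 0.229) for a dim one with a mean intensity of 9.41.

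None of the other stress-associated protein genes was called, although both +N arrays were above both −N arrays for several of them. All 13 named genes were measured. Of the 12 beside *SAP5*, 0 were called in limma, 0 had an unadjusted p under 0.05, and the median log2 fold change was 0.09, against 0.02 over all genes. Both +N arrays lay above both −N arrays for 5 of the 12 (41.7%), against 9.23% of all genes, and below them for 1, against 5.12%. For 5 of the 12 the 95% confidence interval reached a 2-fold increase.

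*OsSAP11* stood just under the threshold. Its intensities were 118 and 191 in −N and 254 and 347 in +N, so the groups were separated. The log2 fold change was 0.98 (SE 0.35, unadjusted p = 0.0574, adjusted p = 1 from limma), 1.98-fold, with a 95% confidence interval from -0.05 to 2.02. After centring each array on its median it met the rule, with a log2 fold change of 1.01 (unadjusted p = 0.00471). Leaving out the −N array of replicate 2 also brought it past the rule (1.33, unadjusted p = 0.0398). Its p was lower still after quantile normalization (0.93, unadjusted p = 0.00322) and with the replicate number as a block (0.98, unadjusted p = 0.00721), where the fold stayed under 2, and without the −N array of replicate 1 it was 0.172 (log2 fold change 0.64). Whether the unadjusted p of *OsSAP11* lay under 0.05 thus depended on the fit. *ISAP1*, which raises tolerance to cold, drought and salt when overexpressed in tobacco, had 1103 and 1619 in −N and 1943 and 2517 in +N. Its log2 fold change was 0.73 (SE 0.29, unadjusted p = 0.0797). *OsSAP17* had 0.55 (SE 0.26, unadjusted p = 0.111), *OsSAP7* 0.50 (SE 0.25, unadjusted p = 0.136) and *OsSAP2* 0.18 (SE 0.16, unadjusted p = 0.329), all with separated groups. A pair of dimmer probe sets of *OsSAP7* gave 0.03 and -0.06, so its value rests on 1 of 3 probe sets.

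*OsSAP8* was the stress-associated protein gene with both +N arrays below both −N arrays. It had 11593 and 11782 in −N and 10394 and 10947 in +N, or -0.13 on the log2 scale (SE 0.14, unadjusted p = 0.415 from limma). *OsSAP6* had the lowest value, -0.28 (SE 0.32, unadjusted p = 0.442), and its groups overlapped. *OsSAP14*, with intensities between 5.51 and 6.10, was near the lower limit on all 4 arrays.

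*CIGR1*, the gene named together with *CIGR2*, differed by less. It had intensities of 866 and 1022 in −N and of 1184 and 1260 in +N, so that its groups were separated too. Its log2 fold change was 0.38 (SE 0.17, unadjusted p = 0.104, adjusted p = 1 from limma), with a 95% confidence interval from -0.13 to 0.89. The whole interval lies below a 2-fold increase, and below the 1.93 of *CIGR2*, although the difference between both genes was not tested because *CIGR2* was chosen by its value.

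Of 9 genes with a GRAS name 7 were measured, and of the 6 beside *CIGR2* 0 were called in limma and 0 had an unadjusted p under 0.05. The list covers part of the family. The study lists a further Scarecrow-like GRAS gene among those induced early by ammonium nitrate. That gene could not be matched by name and was not analysed here, so the count does not show that *CIGR2* differed alone among GRAS genes. For all 6 the 95% confidence interval lay within 2-fold in both directions. The median log2 fold change was 0.02, against 0.02 over all genes. *SLRL1*, which encodes a relative of the DELLA protein that lacks the DELLA motif, had the highest value, 0.45 (SE 0.17, unadjusted p = 0.0688), with 90.5 and 105 in −N and 127 and 141 in +N. *SLR1*, the DELLA gene of rice, had 431 and 576 in −N and 487 and 444 in +N, or -0.10 on the log2 scale (SE 0.22, unadjusted p = 0.679). *OsSCR1* and *SHR1*, whose Arabidopsis relatives pattern the root endodermis and cortex, had -0.35 (SE 0.19, unadjusted p = 0.148) and -0.03 (SE 0.31, unadjusted p = 0.931). *OsSCR1* was dim, between 10.9 and 16.2, and was the gene of this family with both +N arrays below both −N arrays. Groups were separated upward for 2 of the 6 genes (33.3%), *CIGR1* and *SLRL1*, against 9.23% of all genes.

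**Figure D2:**
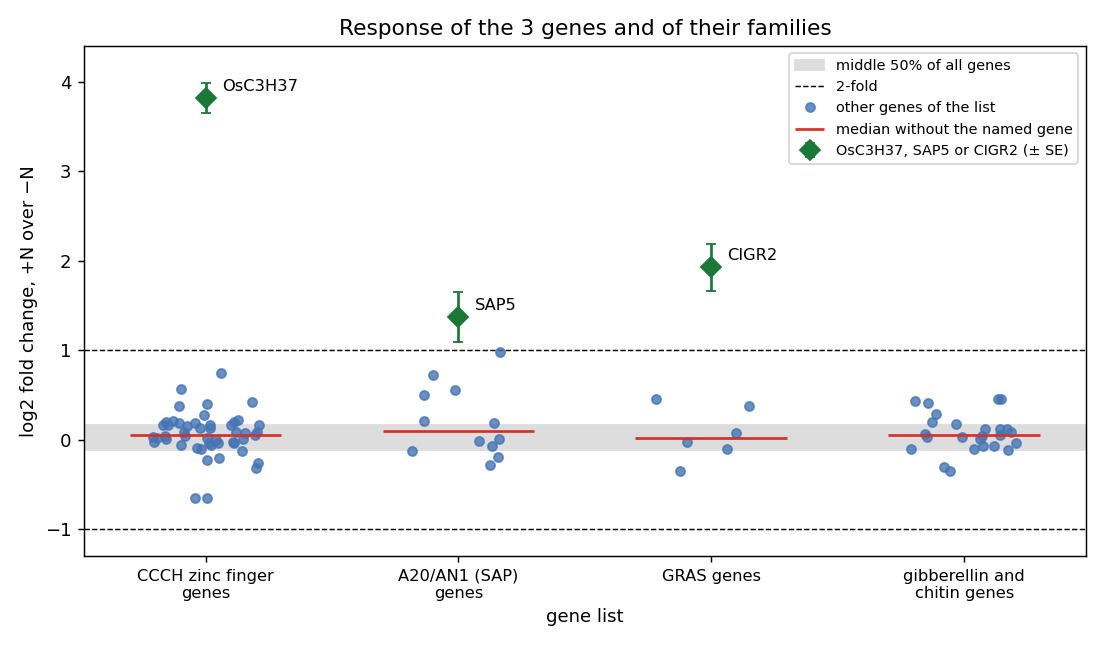
Log2 fold change (+N over −N) of the measured genes with a CCCH, A20/AN1 or GRAS name and of the gibberellin and chitin list. Dots are the other genes, diamonds are *OsC3H37*, *SAP5* and *CIGR2* with their standard error, red lines are medians without these 3, the grey band holds the middle 50% of all genes and dashed lines mark 2-fold. Each diamond lies above 1 and every dot drawn between -1 and 1, with *OsSAP11* nearest to the upper line at 0.98.

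Since *CIGR2* is named for its response to gibberellin and to chitin oligomers, a list of genes of gibberellin synthesis, breakdown and signalling and of the response to chitin was examined. Its chitin genes include receptors, the MAP kinases *MPK3* and *MPK6*, *OsRac1* and chitinases, which cut chitin. The list was drawn by symbol and synonym, so it is incomplete, and an entry can be another gene that shares a name. Gibberellin breakdown was represented by *EUI* alone, and *GID2* had no probe set. Of 25 measured genes 0 were called in limma, against 1.03% of all genes in either direction, and 0 had an unadjusted p under 0.05, against 1.21% of all probe sets. At these shares a count of 0 in 25 is near the background and is no result about the list. The median log2 fold change was 0.05 and the range ran from -0.34 for *LYP4*, a LysM receptor gene of chitin perception (SE 0.65, unadjusted p = 0.627), to 0.45 for *SLRL1*, which is on this list too. *GA20OX3*, a gene of gibberellin synthesis, had a log2 fold change of 0.43 (SE 0.39, unadjusted p = 0.345), and *gid1*, the gibberellin receptor gene, 0.12 (SE 0.15, unadjusted p = 0.471). *CEBIP*, the chitin receptor gene, had 158 and 276 in −N and 232 and 240 in +N (0.18, SE 0.34, unadjusted p = 0.636). The groups were separated upward for 2 of the 25 genes (8%), *gid1* and *SLRL1*, against 9.23% of all genes. For 11 of the 25 the 95% confidence interval reached a 2-fold increase, so the list is less tightly measured than the GRAS genes.

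The difference within each replicate number was examined for the relatives as well. At least 2-fold higher in both replicates were 145 of 17905 genes (0.810%), and 0 of the 49 CCCH, 0 of the 12 stress-associated protein and 0 of the 6 GRAS relatives. Higher in both replicates by any amount were 17 CCCH relatives (34.7%), 6 stress-associated protein relatives (50%) and 2 GRAS relatives (33.3%), against 28.7% of all genes.

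**Figure D3:**
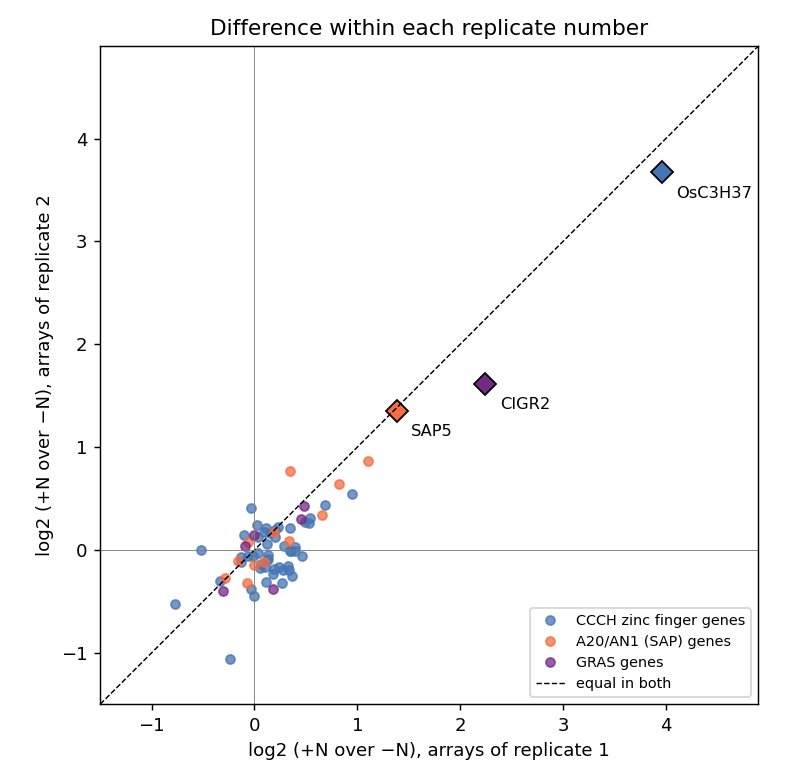
Log2 of +N over −N between the arrays of replicate 1 (x axis) and between those of replicate 2 (y axis). Dots are the other genes of the CCCH, A20/AN1 and GRAS families, outlined diamonds are *OsC3H37*, *SAP5* and *CIGR2*, and the dashed line marks equal values. *SAP5* lies on the line (1.38 and 1.36), and *CIGR2* lies below it (2.24 and 1.61).

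Genes with a pattern over the 4 arrays most like each of the 3 genes were found by the root mean square distance between log2 values, each gene centred on its own mean. The distances describe likeness over 4 arrays that share their treatment contrast, and carry no test. For *OsC3H37* the 5 nearest genes were LOC4337609, LOC4324350, LOC4347418, *DREB1A* and LOC4332162, at distances from 0.08 to 0.28. LOC4337609 had 445 and 592 in −N and 7575 and 7362 in +N, a 14.5-fold difference. *DREB1A*, which encodes a transcription factor of the cold response, had 64.4 and 125 in −N and 1469 and 1171 in +N, 14.6-fold, with a wider gap between its −N arrays than *OsC3H37* had.

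For *SAP5* the nearest genes were LOC4339497, *ARGOS*, LOC4326918, LOC4340244 and LOC4324028, at distances from 0.05 to 0.14. *ARGOS*, whose Arabidopsis relative promotes organ growth, had 468 and 382 in −N and 1144 and 946 in +N, a 2.46-fold difference. Like *SAP5*, all 5 genes were dimmer on the replicate 2 arrays in both groups, which follows largely from choosing them by likeness over the same 4 arrays. For *CIGR2* the nearest were LOC4328342, LOC4325751, LOC4328676, *6PGDH2* and LOC9271578, at distances from 0.10 to 0.16. *6PGDH2*, which encodes a 6-phosphogluconate dehydrogenase, had 666 and 1080 in −N and 3284 and 3919 in +N, 4.23-fold. After quantile normalization all 5 genes stayed among the 5 nearest of *OsC3H37*, 4 of 5 among those of *SAP5* and 4 of 5 among those of *CIGR2*. Among the 3 genes themselves the distances were 0.48 between *SAP5* and *CIGR2*, 0.95 between *OsC3H37* and *CIGR2* and 1.25 between *OsC3H37* and *SAP5*.

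**Figure D4:**
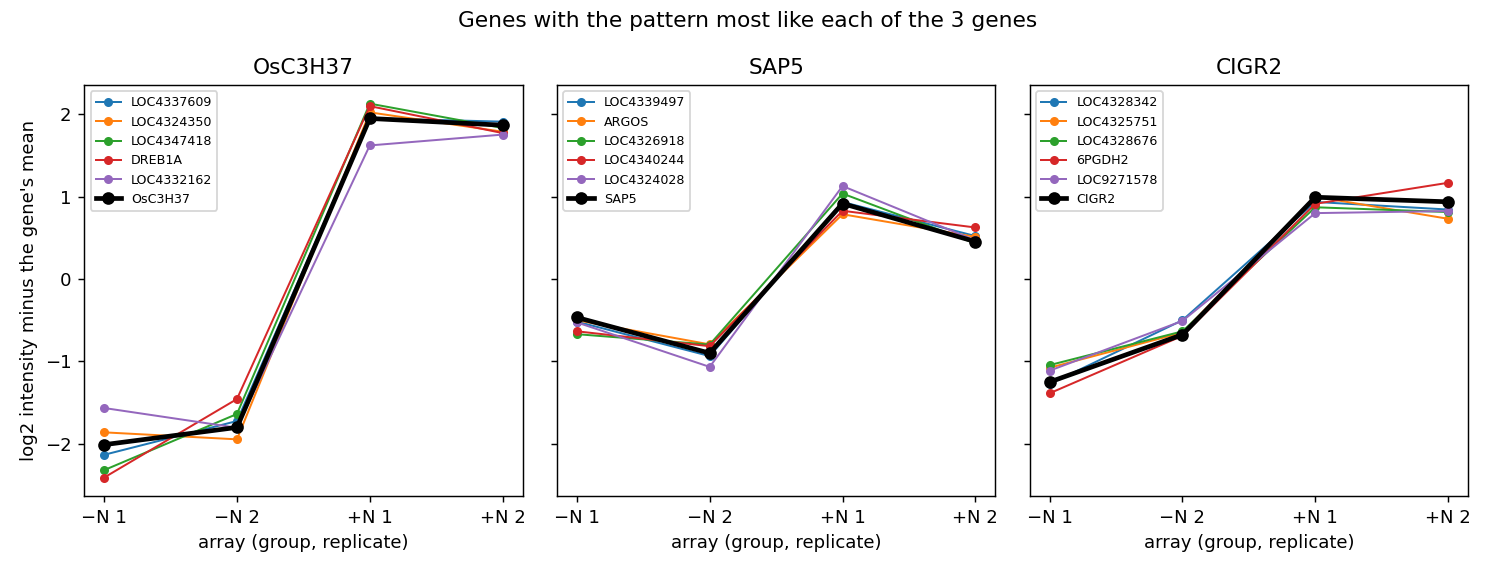
Log2 intensity minus the mean of each gene over the 4 arrays, for *OsC3H37*, *SAP5* and *CIGR2* (black) and the 5 genes with the most similar pattern (colours). Lines only link the values of 1 gene, since replicates have no order. The genes were chosen by their likeness over these same 4 arrays, so shared directions follow largely from the choice. In the middle panel *SAP5* and its 5 nearest genes are lower on the arrays of replicate 2 in each group, and in the right panel *CIGR2* and its 5 nearest are higher on replicate 2 in −N.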

How the data were processed

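Values were intensities of 57381 probe sets on 4 arrays, 2 of −N and 2 of +N roots. The authors deposited them as probe set intensities on a linear scale, 1 column per array. GCOS and RMA are named in the submitters' processing notes without versions. The sources used here do not give how the arrays were normalized. The call rule follows the fold and p thresholds of the study, which does not state an adjustment. Here 187 control probe sets were dropped, intensities under the 5th percentile (5.16) were raised to it, log2 was taken and limma 3.58.1 in R 4.3.3 was fitted with group as the only term. Probe sets were named through the platform's annotation, which pairs 22436 with 1 gene, 95 with several and 34663 with none, and a gene table of assembly ASM3414082v1. All 17905 paired genes were found there. It was used for names and gene order only.

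The 3 genes and the lists were chosen with earlier results of these data known. Families were drawn by gene symbols and synonyms, since protein sequences were not used here. An actin and a 14-3-3 gene that shared a synonym with the gibberellin and chitin list were left out by name. The text names each gene called in a list (0 were), its highest and lowest value and the 5 most similar patterns. For other relatives and flanking genes the choice was made with their values in view. The alternatives tried were median centring, quantile normalization, a replicate block, an offset of 16, no floor, trend and robust moderation, a fold threshold of 1.5, a filter on dim probe sets, other probe set rules and leaving out each array. In simulated arrays 32% of 50 probe sets given a true 2-fold change were recovered, against 92% of 50 given a 4-fold change. A count of 0 calls in a list therefore does not show that 2-fold changes were absent from it. Precision is limited by the number of arrays. Matplotlib 3.10.9 drew the figures.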

Additional observations from a re-analysis of the deposited data

How the results depend on the processing

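For *OsC3H37*, *SAP5* and *CIGR2* the settings run were median centring, quantile normalization, the replicate block, the offset, no floor and leaving out each array. Leaving out 1 array could not reverse the sign, since both +N arrays lay above both −N arrays. The block and no floor left their log2 fold changes unchanged by construction. These settings therefore show only how far the size of the difference moved, and are no support for its direction. With 16 added instead of the floor, *OsC3H37* had 3.65. Without 1 array in turn the values ran from 3.71 to 3.92 for *OsC3H37*, from 1.64 to 2.22 for *CIGR2*, from 1.09 to 1.58 for *SAP5* and from 1.14 to 1.60 for its second probe set. Among the CCCH relatives 1 gene, *OsC3H50*, was called at a fold threshold of 1.5, and without an array between 0 and 1 (*OsC3H9*). Among the stress-associated protein relatives 1 gene, *OsSAP11*, was called after median centring, and without an array between 0 and 1. The GRAS list and the gibberellin and chitin list had 0 calls under all settings. Over all probe sets 266 were higher and 8 lower. A fold threshold of 1.5 gave 517 and 56. Lower calls were 35 after median centring, 14 after quantile normalization, 3 with the offset, 15 with no floor and 18 with dim probe sets left out. Without 1 array in turn 159 to 543 were higher and 5 to 413 lower, and the lower calls rose most without the −N arrays (413 without replicate 1, 229 without replicate 2). In these fits 1 group keeps an array of 1 brightness only, and that lone array is assumed to vary like the other group. The replicate number as a block gave 294 higher and 15 lower and no call among the relatives. Same-numbered arrays deviated together (correlation 0.56 across probe sets), but with 2 pairs this does not show that the numbers pair the samples.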

Other observations

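The genes next to *OsC3H37*, *SAP5* and *CIGR2* in the order of the gene table were examined, 3 on each side of each. Of these 18 genes 11 had a probe set, and 1 was called in limma, against 1.03% of all genes in either direction. This was *OsWNK5*, a gene of the WNK protein kinases, the third gene beyond *CIGR2*. It had intensities of 237 and 332 in −N and of 785 and 840 in +N, and the groups were separated (log2 fold change 1.53, standard error 0.24, unadjusted p = 0.00527, adjusted p = 1 from limma). *WRKY9*, which encodes a WRKY transcription factor and lies between them next to *CIGR2*, had 338 and 554 in −N and 397 and 557 in +N (unadjusted p = 0.761). LOC4339380, next to *OsC3H37*, had 305 and 555 in −N and 854 and 879 in +N, with separated groups (log2 fold change 1.07, standard error 0.36, unadjusted p = 0.0512). The 5 measured neighbours of *SAP5* had overlapping groups. Over all genes both +N arrays were above both −N arrays for 9.23% and below them for 5.12%, so this is near the background. The 3 genes before *OsC3H37* and the 3 before *CIGR2* in the gene order had no probe set, so only 1 side of each was read.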
